A study of Mus musculus with 35 samples.

Results

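The genes described here were 6 regulators and markers of the germinal centre reaction, Gcsam, Mef2b, Fas, Pou2af1, Spib and Irf8, followed through mouse B-cell development and into B-lineage tumours. They were taken by symbol from an Affymetrix 430A2 array table, with the probe set of highest mean over the 35 arrays standing for each gene, which gave 6 of the 12393 genes with a named probe set. No member was missing, and Irf8 alone had another probe set, so that 7 probe sets covered the 6 genes. Tumours came from 3 mouse models: Lig4/P53 KO mice, which lack both genes (6 arrays), Myc/Bcl6 mice, which carry both transgenes (3 arrays), and Bcl6 mice, which the labels call both transgenic and knock-in (4 arrays). The tumours were labelled as lymphoid and profiled as tissue, and the sources used here give neither the promoter of a transgene nor the age of any animal. Wild-type B cells had been sorted by flow cytometry into 6 stages. Bone marrow gave pro-B cells (B220+, CD43 high, IgM-; 3 arrays), pre-B cells (B220+, CD43 low, IgM-; 3 arrays) and plasma cells (B220 low, CD138+, CD93-; 3 arrays). Spleen gave transitional cells (B220+, CD93+; 4 arrays), germinal centre cells (B220+, high for the lectin PNA; 5 arrays) and plasmablasts (B220+, CD138+, CD93-; 4 arrays). None of the 6 genes encodes an antigen of these gates. Pre-B and transitional cells and 2 of the 3 pro-B samples came from 129 mice, while the third pro-B sample and all germinal centre, plasmablast and plasma cell samples came from B6 mice. For the tumours only the mouse model was recorded here and no strain. The part of strain in tumour differences from the B6 germinal centre cells was therefore not tested.

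In the germinal centre, activated B cells divide, mutate their antibody genes and are selected by survival signals, and the factor Bcl6 holds the programme in place until cells leave as memory or plasma cells. Pou2af1 (OBF-1) is a coactivator that binds Oct factors on octamer DNA and is needed for germinal centres to form. Spib is an ETS factor related to PU.1, and Irf8 is an interferon regulatory factor that pairs with such ETS factors on composite DNA elements. Mef2b is a MADS-box factor known as an activator of Bcl6 transcription in human germinal centre B cells. Gcsam is a signalling adaptor of germinal centre B cells that, in human cells, tunes receptor signalling and motility. Fas is a death receptor that germinal centre B cells carry at high density.

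The values were log2 intensities, on which a difference of 1 is a doubling, and they ran from 1.71 to 14.29 over the table with a median of 4.921. The table has no detection call, so a low level cannot be told apart from background, and levels were compared between groups of arrays and not between genes. The 18S ribosomal RNA control read 4.136 to 6.148 in tumours and 4.018 to 7.381 in plasma cells, against 10.035 to 11.276 in all other arrays. Array signal toward the 3′ end of control transcripts exceeded that toward the 5′ end by 2.255 to 4.695 in the tumours, by 4.585, 4.464 and 0.451 in plasma cells and by 0.680 to 2.947 in the other stages. Values spread least on pre-B replicate 2, pro-B replicate 1 and, among tumours, Bcl6 replicate 2. All Myc/Bcl6 arrays were narrow as well, with interquartile ranges of 2.327 to 2.854, against 3.95 to 4.139 in germinal centre arrays. The setting that left out narrow-spread arrays kept the Myc/Bcl6 arrays, so the part of this spread in their differences was not tested. Bcl6 itself averaged 5.62 in Lig4/P53 KO, 6.68 in Myc/Bcl6 and 7.17 in Bcl6 tumours, against 11.22 in germinal centre cells, so the transgene was not seen as a high level of this probe set. Lig4 and P53 were not analysed here. Arrays labelled plasma cell did not carry a plasma cell profile in full: of 6 plasma cell markers none rose and 1 fell against plasmablasts, and the one that fell was Sdc1, which encodes the sorting antigen CD138 (4.73 in plasma cells, 8.75 in plasmablasts). Nor did any of the 6 markers rise in plasmablasts against germinal centre cells. Their summed level (log2 of the sum of intensities) was 10.07 to 13.17 in plasmablasts, against 11.99 to 12.78 in germinal centre cells. These markers therefore do not set the plasmablast label apart from germinal centre cells either. In tissue and in sorted cells alike, fewer cells of a type and less RNA per cell cannot be told apart.

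Germinal centre cells had the highest mean of the 6 normal stages for 5 of the 6 genes, the exception being Spib, and the highest of all 9 groups for 4 of the 6, the further exception being Irf8. Each gene's group means were ordered, and each group was compared with the next one in limma, with Benjamini-Hochberg adjustment over all genes and calls at an adjusted p under 0.05. Of the 48 neighbouring pairs, 4 were called and 44 did not pass the test. Some pairs that did not pass had arrays without overlap: Mef2b in pre-B and pro-B cells, Pou2af1 in Myc/Bcl6 tumours and plasma cells, Spib in Lig4/P53 KO tumours and plasma cells, and Irf8 in Lig4/P53 KO tumours and plasmablasts. The share of all genes without overlap was not counted, neither for these pairs nor for any comparison below. Groups this small can separate by chance, so absence of overlap, here and below, only describes the arrays. The means below are given with their SD over arrays.

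**Figure D1:**
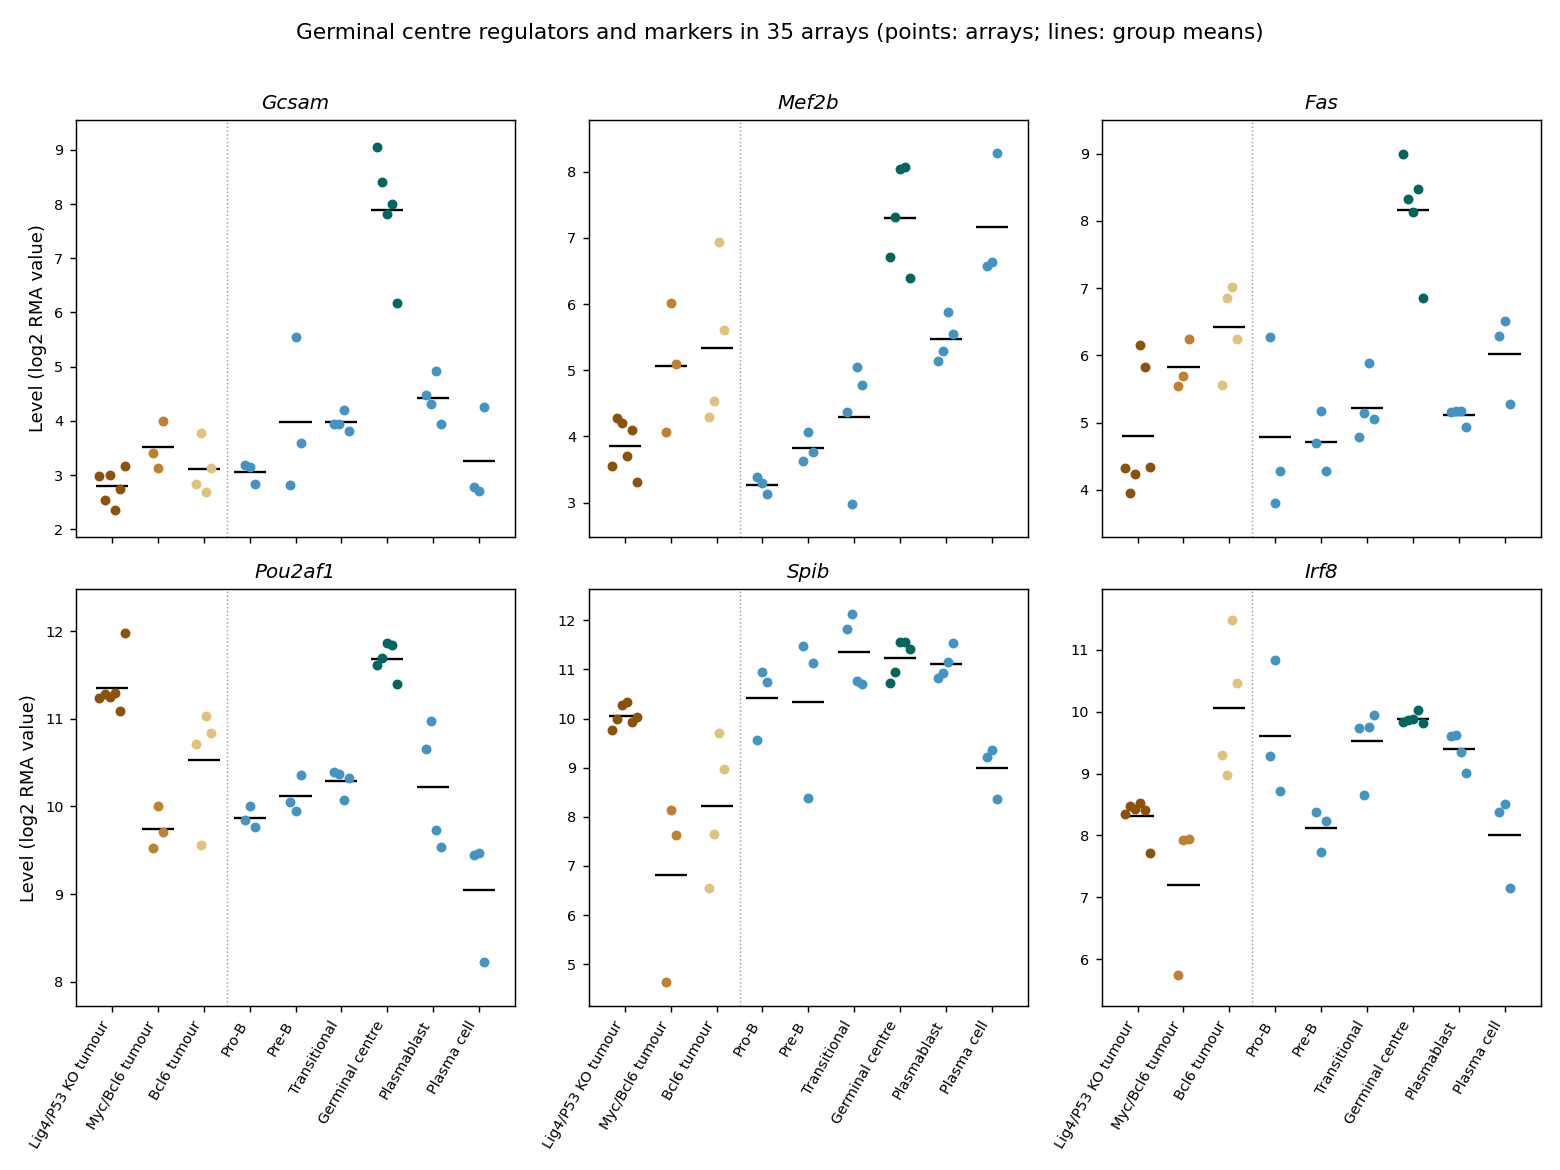
Level of each gene (log2 RMA value, vertical axis) in every array, with tumours left of the dotted line and normal stages in developmental order right of it; points are arrays and lines are group means. The 5 germinal centre arrays lie above the other 30 for Gcsam, and at 9.82 to 10.03 they form a tight cluster for Irf8.

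Gcsam separated germinal centre arrays from every other array. Its mean was 2.80 ± 0.31 in Lig4/P53 KO, 3.51 ± 0.45 in Myc/Bcl6 and 3.11 ± 0.48 in Bcl6 tumours. Along development it averaged 3.06 ± 0.19 in pro-B cells, 3.99 ± 1.41 in pre-B cells, 3.98 ± 0.17 in transitional cells, 7.89 ± 1.07 in germinal centre cells, 4.42 ± 0.40 in plasmablasts and 3.25 ± 0.87 in plasma cells. All 30 other arrays were below the lowest germinal centre array (6.17), the closest being pre-B replicate 2 at 5.55. In the order of means only the step between the first and the next group, germinal centre cells and plasmablasts, was called, and the 8 lower groups followed each other without a called step.

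Mef2b was high in germinal centre cells and again in plasma cells. Mef2b averaged 3.86 ± 0.39 in Lig4/P53 KO, 5.06 ± 0.98 in Myc/Bcl6 and 5.34 ± 1.20 in Bcl6 tumours. The stages had 3.27 ± 0.13 in pro-B cells, 3.82 ± 0.22 in pre-B cells, 4.29 ± 0.92 in transitional cells, 7.31 ± 0.76 in germinal centre cells, 5.47 ± 0.33 in plasmablasts and 7.16 ± 0.97 in plasma cells. Of the 30 other arrays 4 reached the lowest germinal centre array (6.39), and they were the 3 plasma cell arrays and Bcl6 tumour replicate 3. Germinal centre and plasma cells stood next to each other in the order and differed by 0.14 ± 0.47 (SE, adjusted p = 0.859), while the step from plasma cells to plasmablasts below them was called.

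Fas was highest in germinal centre cells, with Bcl6 tumours next. Fas averaged 4.80 ± 0.93 in Lig4/P53 KO, 5.82 ± 0.37 in Myc/Bcl6 and 6.42 ± 0.66 in Bcl6 tumours. Among normal stages it had 4.79 ± 1.32 in pro-B cells, 4.72 ± 0.44 in pre-B cells, 5.22 ± 0.47 in transitional cells, 8.15 ± 0.80 in germinal centre cells, 5.11 ± 0.11 in plasmablasts and 6.03 ± 0.66 in plasma cells. One of the 30 other arrays, Bcl6 tumour replicate 3 at 7.01, reached the lowest germinal centre array (6.86). The called step in the order lay between germinal centre cells and Bcl6 tumours.

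Pou2af1 varied over a smaller span, 2.64 between its highest and lowest group means. Its level averaged 11.35 ± 0.31 in Lig4/P53 KO, 9.74 ± 0.24 in Myc/Bcl6 and 10.53 ± 0.66 in Bcl6 tumours. From early to late stages the means were 9.87 ± 0.12 in pro-B cells, 10.12 ± 0.21 in pre-B cells, 10.29 ± 0.15 in transitional cells, 11.68 ± 0.19 in germinal centre cells, 10.22 ± 0.70 in plasmablasts and 9.04 ± 0.71 in plasma cells. Only Lig4/P53 KO replicate 6 (11.98) reached the lowest germinal centre array (11.40). Lig4/P53 KO tumours and germinal centre cells overlapped and did not pass the test (-0.33 ± 0.28, SE, adjusted p = 0.568), and the called step was the one from Lig4/P53 KO to Bcl6 tumours.

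Spib means lay above 10 in the stages from pro-B cells to plasmablasts and in Lig4/P53 KO tumours, and below 9 in plasma cells and the other tumours. Tumour means were 10.05 ± 0.22 in Lig4/P53 KO, 6.81 ± 1.89 in Myc/Bcl6 and 8.22 ± 1.40 in Bcl6 tumours. In the normal stages it averaged 10.42 ± 0.75 in pro-B cells, 10.33 ± 1.69 in pre-B cells, 11.36 ± 0.73 in transitional cells, 11.24 ± 0.38 in germinal centre cells, 11.11 ± 0.31 in plasmablasts and 8.99 ± 0.53 in plasma cells. Of the 17 normal arrays outside the germinal centre 11 reached the lowest germinal centre array, and no tumour array did. No neighbouring pair was called, although the ends of the order, transitional cells and Myc/Bcl6 tumours, were 4.55 apart.

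Irf8 ordered the groups differently, with Bcl6 tumours first. Irf8 averaged 8.32 ± 0.30 in Lig4/P53 KO, 7.20 ± 1.26 in Myc/Bcl6 and 10.06 ± 1.14 in Bcl6 tumours. Normal stages averaged 9.61 ± 1.10 in pro-B cells, 8.12 ± 0.34 in pre-B cells, 9.52 ± 0.59 in transitional cells, 9.88 ± 0.08 in germinal centre cells, 9.40 ± 0.29 in plasmablasts and 8.01 ± 0.75 in plasma cells. The 5 germinal centre arrays lay within 0.21 of each other, against a range of 2.50 among the 4 Bcl6 tumours. No neighbouring pair was called for Irf8 either.

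Between germinal centre and transitional cells, 4 of the 6 genes rose and none fell: Gcsam, Mef2b, Fas and Pou2af1. Over all 12393 genes, 5.29% rose and 8.21% fell, so that 39.2% of the calls were higher, against 63.1% with equal array medians and 55.2% after renewed quantile normalization. The shift of all genes was -0.27 in the fit as reported and -0.092 and -0.061 under these scalings, and the 4 members were called higher under each. In the fit as reported, the median difference was 2.17 for the 6 genes and -0.27 for all genes. Gcsam read 9.05, 8.41, 7.82, 8.0 and 6.17 in the germinal centre arrays, against 3.95, 3.95, 4.21 and 3.81 in the transitional arrays, a difference of 3.91 ± 0.51 (SE of the fit, 15.0-fold, adjusted p = 0.000105). Mef2b read 6.71, 7.32, 8.04, 8.07 and 6.39 in germinal centre cells, against 4.37, 2.98, 5.05 and 4.77 in transitional cells, which is 3.01 ± 0.43 higher (8.08-fold, adjusted p = 0.000207). For both genes every germinal centre array was above every transitional array, with replicate 5 the lowest of its group.

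Fas, the death receptor, read 9.0, 8.32, 8.13, 8.47 and 6.86 in germinal centre cells, against 4.79, 5.14, 5.89 and 5.05 in transitional cells, and rose by 2.94 ± 0.45 (7.67-fold, adjusted p = 0.000358). Pou2af1, the Oct coactivator, read 11.62, 11.69, 11.87, 11.84 and 11.40 in germinal centre cells, against 10.39, 10.37, 10.07 and 10.33 in transitional cells, and rose by 1.40 ± 0.30 (2.63-fold, adjusted p = 0.005). These groups did not overlap either, and replicate 5 was again the lowest germinal centre array. Spib (-0.12, 95% interval -1.15 to 0.91) and Irf8 (0.36, interval -0.42 to 1.14) did not pass the test, and their arrays overlapped. All 4 calls held without any single array.

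The promoters of the 4 genes that rose together are shown because octamer and ETS elements are the DNA sites of factors among the 6 genes and Yy1 is named in the study's title. Each is the 250 bases before the RefSeq start (GRCm38.p6), written 5′ to 3′ along the gene, with motif matches in capitals. Gcsam lies on chr16:45610190-45610439 (plus strand), Mef2b on chr8:70152511-70152760 (plus strand), Fas on chr19:34290409-34290658 (plus strand) and Pou2af1 on chr9:51213440-51213689 (plus strand).
Gcsam promoter: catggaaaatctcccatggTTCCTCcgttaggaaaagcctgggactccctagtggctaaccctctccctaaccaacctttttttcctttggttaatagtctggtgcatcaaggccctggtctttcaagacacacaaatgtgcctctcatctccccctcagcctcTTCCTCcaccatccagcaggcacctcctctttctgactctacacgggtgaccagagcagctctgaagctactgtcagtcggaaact
Mef2b promoter: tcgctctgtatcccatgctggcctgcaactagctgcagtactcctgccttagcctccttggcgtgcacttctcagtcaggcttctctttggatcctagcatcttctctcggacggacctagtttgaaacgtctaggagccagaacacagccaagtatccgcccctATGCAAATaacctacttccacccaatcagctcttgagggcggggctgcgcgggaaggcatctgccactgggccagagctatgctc
Fas promoter: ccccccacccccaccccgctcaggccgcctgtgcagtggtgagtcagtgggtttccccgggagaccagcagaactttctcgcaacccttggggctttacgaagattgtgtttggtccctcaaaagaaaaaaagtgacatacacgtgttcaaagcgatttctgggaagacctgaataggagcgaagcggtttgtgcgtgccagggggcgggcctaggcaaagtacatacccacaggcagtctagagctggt
Pou2af1 promoter: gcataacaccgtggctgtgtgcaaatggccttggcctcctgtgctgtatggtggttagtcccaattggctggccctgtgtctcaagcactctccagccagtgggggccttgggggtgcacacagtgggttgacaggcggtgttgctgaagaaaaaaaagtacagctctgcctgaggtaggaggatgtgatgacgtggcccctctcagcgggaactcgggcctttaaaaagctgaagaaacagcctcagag
The letters searched on both strands were ATGCAAAT (octamer), GAGGAA (ETS element of the PU.1 type), GGAANNGAA (ETS and IRF composite) and AANATGGC (Yy1). The Mef2b promoter held the octamer once, 85 to 78 bases before the start, an element found in 1.62% of 32536 promoters. The Gcsam promoter held the ETS letters at 2 places as the reverse complement TTCCTC, an element found in 23.4% of promoters. The composite element (6.95% of promoters) and the Yy1 letters (3.93%) were in none of these 4 windows, and the Fas and Pou2af1 windows held none of the 4 motifs. A match is a description of the letters and not of binding.

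Strain differed together with stage in this comparison, since all 5 germinal centre arrays came from B6 mice and all 4 transitional arrays from 129 mice. With strain as a covariate, which only the 3 pro-B arrays can estimate, no member was called: Gcsam differed by 4.23 (adjusted p = 0.0975), Mef2b by 3.23 (0.144), Fas by 3.70 (0.0958) and Pou2af1 by 1.56 (0.364). Among pro-B arrays, the B6 array and the pair of 129 arrays had 2.84 against 3.18 and 3.15 for Gcsam, and 3.13 against 3.38 and 3.30 for Mef2b. For Fas the B6 pro-B array had 4.28, against 6.28 and 3.80 in the 129 arrays, and for Pou2af1 9.76, against 9.85 and 10.

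Markers of other blood cells were also higher in the germinal centre arrays. The summed level of 7 of 8 listed NK cell markers (log2 of the sum of intensities) was 10.24 to 12.06 in germinal centre arrays, against 7.09 to 7.38 in transitional arrays, and 6 of the 7 rose. Of 9 measured T cell markers 5 rose (summed level 9.42 to 10.67, against 8.18 to 8.51), of 10 granulocyte markers 8 rose (11.63 to 13.97, against 7.58 to 10.92), and of 12 macrophage and dendritic cell markers 6 rose (10.52 to 11.99, against 9.27 to 10.41). Gzma and Nkg7 led the NK list in germinal centre cells, with means of 10.01 and 8.60. The germinal centre array with the least NK and T cell signal, replicate 4, had 8.0 for Gcsam, 8.07 for Mef2b, 8.47 for Fas and 11.84 for Pou2af1; its NK sum, 10.24, was still above every transitional array. Replicates 1 and 2, with the highest NK sums at 12.06 each, had the highest Gcsam levels, 9.05 and 8.41. Their Mef2b (6.71 and 7.32) and Pou2af1 levels (11.62 and 11.69) were below those of replicates 3 and 4, and their Fas levels were 9.0 and 8.32. Fas is also known from activated T and NK cells, and the part of these cells in the result was not tested. Of 7 B-cell identity markers 2 fell and none rose in the same comparison (13.26 to 13.66, against 13.51 to 13.82).

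Some other genes of the germinal centre programme rose as well. From a list of 20 such genes 14 were measured, and 4 rose and none fell in germinal centre against transitional cells, with a median difference of 0.75. Basp1, a membrane-associated phosphoprotein, differed by 3.60 ± 0.56 (adjusted p = 0.000401). Efnb1, an ephrin, differed by 1.38 ± 0.31 (0.0059), Ezh2, the methyltransferase of histone H3, by 1.85 ± 0.48 (0.0148) and Plxnb2, a semaphorin receptor, by 1.98 ± 0.55 (0.0213). Bcl6 was 11.22 in germinal centre and 9.75 in transitional cells, a difference of 1.47 ± 0.62 that did not pass (adjusted p = 0.118); it is named for its role in the tumour models. Of 4 measured genes known to be lower in germinal centre than in naive B cells 2 fell, Klf2 (-2.36 ± 0.38, adjusted p = 0.00046) and Ccr7 (-2.19 ± 0.49, 0.00596), which steer B cells through lymphoid tissue.

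Relatives of the members were counted beside all genes, of which 5.29% rose and 8.21% fell in this comparison. Lists of 3 to 7 genes are too short to be told apart from these shares. None of the other MEF2 genes, Mef2a, Mef2c and Mef2d, was called by limma, and none had an unadjusted p under 0.05. None of 7 other IRF genes was called, with 3 at an unadjusted p under 0.05. Among 6 Oct and ETS relatives 2 rose, Ets1 (1.80 ± 0.37, adjusted p = 0.00312) and Fli1 (1.91 ± 0.51, 0.0174). Among 6 genes of the Fas pathway 1 rose, Cflar, the inhibitor of caspase-8 activation (7.93 in germinal centre cells, 6.39 in transitional cells, adjusted p = 0.00565).

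**Figure D2:**
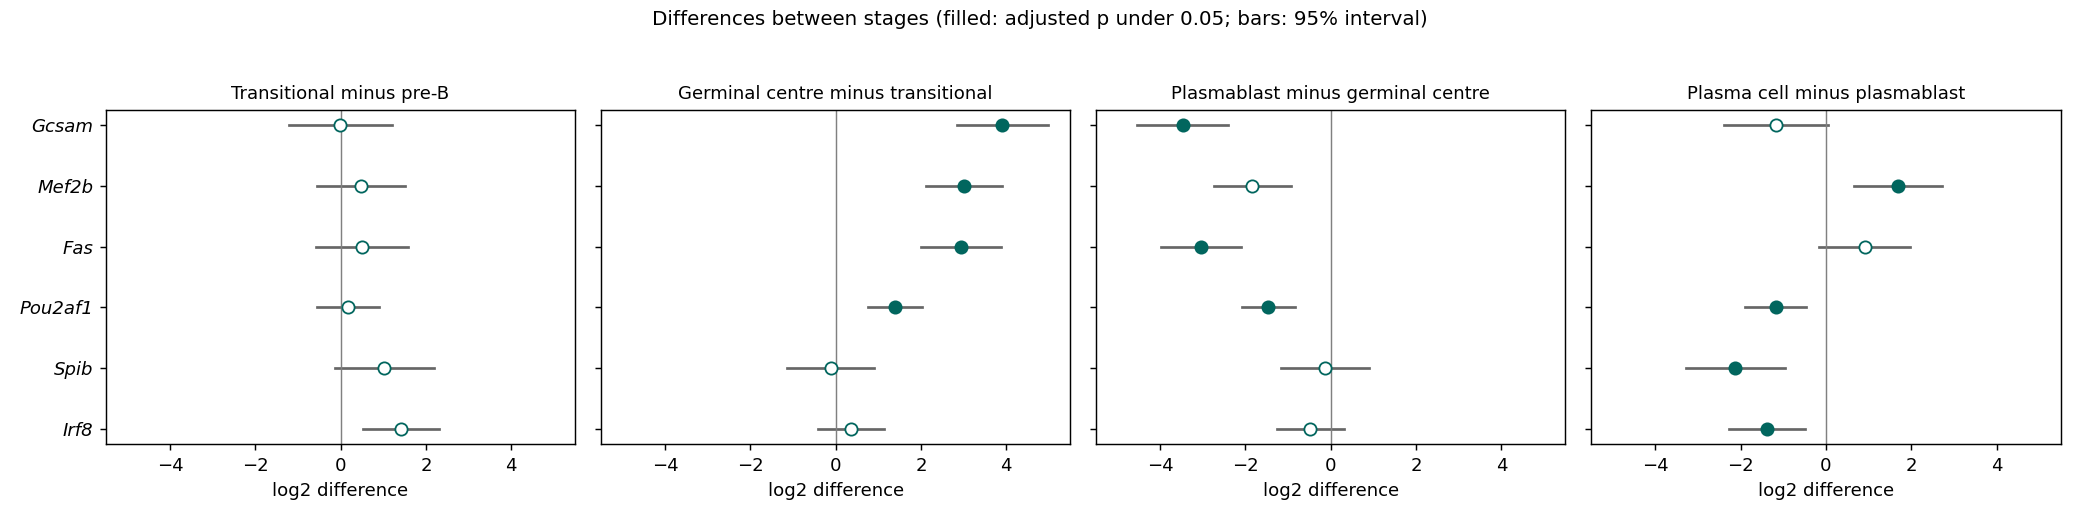
Differences in level between stages (log2, horizontal axis) for the 6 genes, with 95% intervals; filled points have an adjusted p under 0.05. Gcsam, Mef2b, Fas and Pou2af1 lie right of 0 for germinal centre minus transitional cells, and Gcsam, Fas and Pou2af1 left of it for plasmablasts minus germinal centre cells.

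Set against pro-B cells, which share the germinal centre arrays of the comparison above, the same 4 genes were called higher and none lower, where 4.88% of all genes rose and 3.85% fell (55.9% of calls higher, 69.7% with equal array medians). The differences were 4.83 ± 0.56 for Gcsam (28.5-fold, adjusted p = 1.3e-05), 4.03 ± 0.47 for Mef2b (16.4-fold, 1.3e-05), 3.37 ± 0.49 for Fas (10.3-fold, 0.00016) and 1.82 ± 0.33 for Pou2af1 (3.52-fold, 0.00142). With strain as a covariate 3 of them were still called, and Pou2af1 had 1.93 with an adjusted p of 0.0606. Strain varied within pro-B cells only, so that fit sets the germinal centre mean against the single B6 pro-B array, replicate 3. Spib (0.82 ± 0.54) and Irf8 (0.28 ± 0.41) did not pass. The pro-B means of Gcsam and Mef2b lay below the table's median of 4.921, so these folds are those of measured values that may hold background. Among other markers, B-cell identity rose in 4 of 7 genes, NK cells in 3 of 7 and T cells in 3 of 9, while granulocyte markers fell in 5 of 10 (11.63 to 13.97 in germinal centre arrays, against 14.26 to 14.52 in pro-B arrays); their part was not tested.

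The earlier steps called no member. Between pre-B and pro-B cells limma called none of the 6, with 1 at an unadjusted p under 0.05, and called 0.113% of all genes higher and 0.0484% lower. That 1 was Irf8, with 8.38, 7.73 and 8.24 in pre-B cells, against 9.28, 10.83 and 8.71 in pro-B cells; the groups did not overlap, and the difference was -1.49 ± 0.46 (adjusted p = 0.209). Between transitional and pre-B cells none was called, with 1 at an unadjusted p under 0.05, where 2.93% of genes rose and 2.91% fell. Irf8 again came closest, with 9.74, 8.65, 9.75 and 9.95 in transitional cells and the pre-B levels just given (1.41 ± 0.43, adjusted p = 0.0564). Without transitional replicate 2, the lowest of its group at 8.65, Irf8 was called. Granulocyte markers, from cells that are known to share bone marrow with pre-B cells, summed to 7.58 to 10.92 in transitional arrays, against 13.82 to 14.94 in pre-B arrays, and all 10 fell; their part in the Irf8 values was not tested. Of the 14 germinal centre list genes described above 4 rose and 1 fell in transitional cells; Cd83, an activation marker of B and dendritic cells, was 10.99 in transitional and 5.90 in pre-B cells (adjusted p = 8.13e-08).

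Plasmablasts had lower Gcsam, Fas and Pou2af1 than germinal centre cells. Against germinal centre cells 3 of the 6 genes fell and none rose, where 0.557% of all genes fell and 0.121% rose, and the median difference was -1.65 for the 6 genes and 0.053 for all genes. Gcsam read 4.48, 4.32, 4.92 and 3.95 in plasmablasts and fell by 3.47 ± 0.51 against the germinal centre arrays given above (11.1-fold lower, adjusted p = 0.00142). Fas read 5.16, 5.17, 5.17 and 4.94 in plasmablasts, all below the lowest germinal centre array at 6.86, and fell by 3.04 ± 0.45 (8.24-fold lower, adjusted p = 0.00142). Both groups came from B6 spleens, so strain and organ did not differ here.

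Pou2af1 read 10.66, 10.97, 9.73 and 9.54 in plasmablasts and fell by 1.46 ± 0.30 (2.75-fold lower, adjusted p = 0.0253); this call was lost after renewed quantile normalization (-1.16, adjusted p = 0.109) and without germinal centre replicate 1, 2, 3 or 4 or plasmablast replicate 3 or 4 (-1.47 to -1.23). Mef2b read 5.14, 5.29, 5.88 and 5.55 in plasmablasts, below all germinal centre arrays, and its difference of -1.84 ± 0.43 missed the threshold at an adjusted p of 0.0501. The Mef2b value passed with 9 settings, the replicate block among them (0.0164), and not after renewed quantile normalization (0.116) or with the strain covariate (0.0545). Of the fits without 1 array, it passed in the one without germinal centre replicate 5 (0.0263) and in none of the other 8. Spib (-0.14 ± 0.49) and Irf8 (-0.49 ± 0.38) did not pass, although the Irf8 arrays did not overlap. NK cell markers were lower in plasmablasts as well, with 5 of 7 falling (7.15 to 9.42, against 10.24 to 12.06 in germinal centre arrays), as did 3 of 9 T cell markers, and their part in the Fas result was not tested.

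Calls among the other germinal centre genes depended on the fit at this step. Limma called 0 of the 14, with 7 at an unadjusted p under 0.05, while 10 alternatives called 1 to 9 of them (9 with array weights, 6 with both groups fitted alone), and their median difference was -1.04. Basp1 had -2.38 ± 0.56 (adjusted p = 0.0505), Mybl1, a Myb factor of dividing germinal centre cells, -1.99 ± 0.48 (0.0576), Efnb1 -1.16 ± 0.31 (0.0797) and Plxnb2 -1.93 ± 0.55 (0.112). Limma also called 0 of the 4 genes known to be lower in germinal centre cells (1 at an unadjusted p under 0.05), 0 of 6 Oct and ETS relatives (3), 0 of 7 other IRF genes (0), 0 of 3 other MEF2 genes (0) and 0 of 6 Fas pathway genes (0). Over all genes 0.557% fell and 0.121% rose, so the absence of calls in lists this short says little about them.

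Plasma cells differed from plasmablasts in 4 of the 6 genes, with Mef2b rising and Pou2af1, Spib and Irf8 falling; of all genes 8.90% rose and 5.39% fell. Mef2b read 6.57, 6.64 and 8.28 in plasma cells, against 5.14, 5.29, 5.88 and 5.55 in plasmablasts, and rose by 1.70 ± 0.49 (3.24-fold, adjusted p = 0.0226). Pou2af1 read 9.44, 9.47 and 8.22 in plasma cells and fell by 1.18 ± 0.35 (adjusted p = 0.0242). The groups did not overlap for either gene, and plasma cell replicate 3 was the extreme array for both.

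Spib read 9.22, 9.36 and 8.37 in plasma cells, against 10.82, 10.93, 11.15 and 11.53 in plasmablasts, and fell by 2.12 ± 0.56 (4.35-fold lower, adjusted p = 0.0131). Irf8 read 8.38, 8.51 and 7.15 in plasma cells, against 9.61, 9.62, 9.35 and 9.01 in plasmablasts, and fell by 1.39 ± 0.43 (2.62-fold lower, adjusted p = 0.0323). Gcsam (-1.16 ± 0.58) and Fas (0.92 ± 0.51) did not pass. Without plasma cell replicate 3 none of the 4 was called: Mef2b had 1.14 (adjusted p = 0.151), Pou2af1 -0.77 (0.158), Spib -1.81 (0.0631) and Irf8 -0.96 (0.183). Without plasmablast replicate 1 or 2 Spib alone was called, and without plasmablast replicate 3 Irf8 was lost (-1.40, 0.0596). Replicate 3 was also the plasma cell array with the least 3′ excess, 0.451, and its 18S control (7.381) lay between those of the other plasma cell arrays and the other stages; with that excess as a covariate Mef2b, Pou2af1 and Irf8 were still called, while Spib had -1.89 (adjusted p = 0.0957). The 18S control separated plasma cells (4.018 to 7.381) from plasmablasts (10.185 to 10.863) and was not used as a covariate. Organ differed as well, bone marrow against spleen. Stage, organ and RNA quality therefore cannot be told apart here, and the calls that held do not separate them.

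Among the germinal centre list genes 2 rose and 4 fell in plasma cells against plasmablasts. The differences were -5.76 ± 0.70 for Bcl6 (adjusted p = 6.2e-06), -3.89 ± 0.64 for Basp1 (0.000207) and -2.04 ± 0.56 for Bach2, a repressor of the plasma cell programme (0.0158), while Plxnb2 rose by 3.54 ± 0.62 (0.00044). Of 7 B-cell identity markers 4 fell and none rose (12.13 to 12.54 in plasma cells, against 13.12 to 13.55 in plasmablasts). Granulocyte markers fell in 7 of 10 (6.55 to 7.40, against 11.59 to 13.26), macrophage and dendritic cell markers in 4 of 12 (8.51 to 9.25, against 9.01 to 10.71) and erythroid markers in 3 of 6 (6.07 to 6.65, against 7.80 to 11.27). Their part in the falls of Spib and Irf8 was not tested.

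The 2 Irf8 probe sets did not give the same picture, which limits what can be said of Irf8 in germinal centre cells. The probe set used above gave 9.88 in germinal centre and 9.52 in transitional cells, whereas the second probe set gave 8.35 in germinal centre and 8.85 in transitional cells (-0.50 ± 0.63). They also pointed opposite ways for germinal centre against pro-B cells (0.28 and -0.94), plasmablasts against germinal centre cells (-0.49 and 0.52) and Bcl6 tumours against germinal centre cells (0.17 and -1.28); none of these 8 values was called. Both were called for the fall in plasma cells against plasmablasts (-1.39 and -3.28) and for the falls in Myc/Bcl6 tumours (-2.69 and -3.83) and Lig4/P53 KO tumours (-1.57 and -2.27) against germinal centre cells. On the second probe set pro-B cells had the highest mean, 9.29, and the Bcl6 tumours ran from 4.99 to 9.03.

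**Figure D3:**
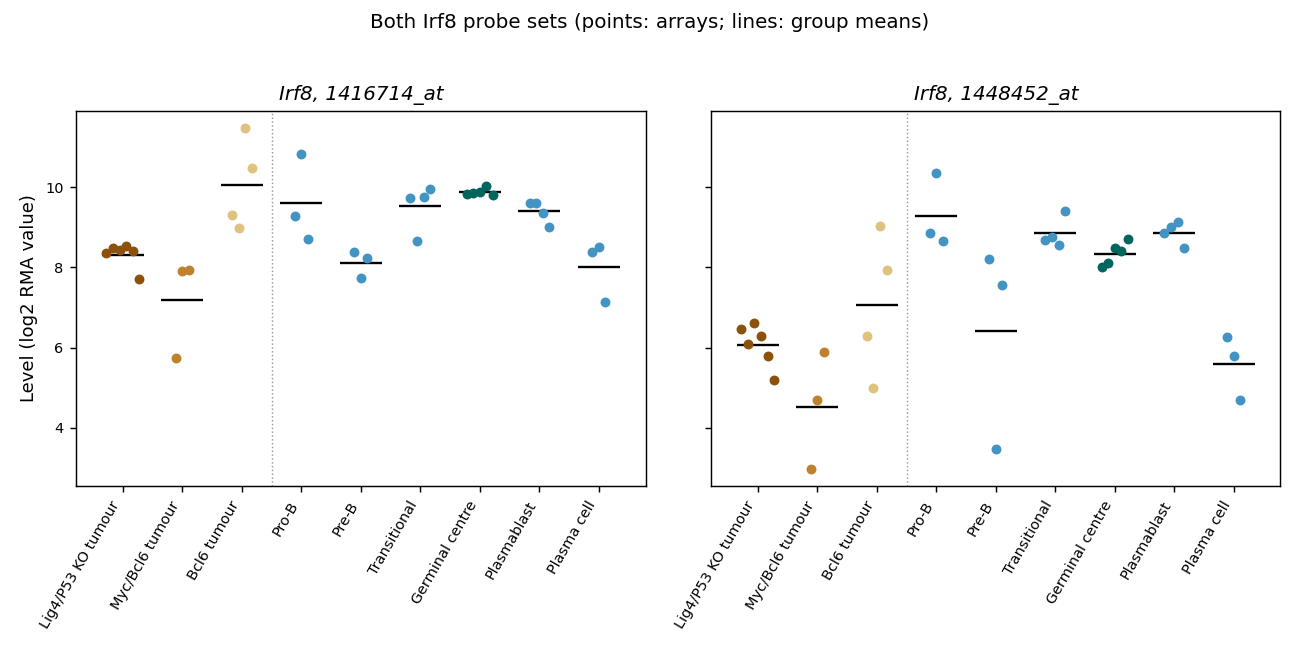
Level of both Irf8 probe sets (log2 RMA value, vertical axis) in every array, with tumours left of the dotted line; points are arrays and lines are group means. The probe set on the left places Bcl6 tumours highest at 10.06, and the one on the right places pro-B cells highest at 9.29.

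All 3 tumour groups were lower than germinal centre cells in Gcsam, Mef2b and Fas, while their calls differed in Pou2af1, Spib and Irf8. The 3 comparisons share the germinal centre arrays, so their values are given side by side. Bcl6 tumours had 5 of the 6 genes lower and none higher, where 13.9% of all genes fell and 13% rose. Myc/Bcl6 tumours had all 6 lower, where 20.9% fell and 27.2% rose. Lig4/P53 KO tumours had 4 lower and none higher, where 6.57% fell and 9.2% rose. The median difference of the 6 genes was -1.85 in Bcl6, -2.51 in Myc/Bcl6 and -2.46 in Lig4/P53 KO tumours, beside 0.212, 0.31 and 0.117 for all genes.

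**Figure D4:**
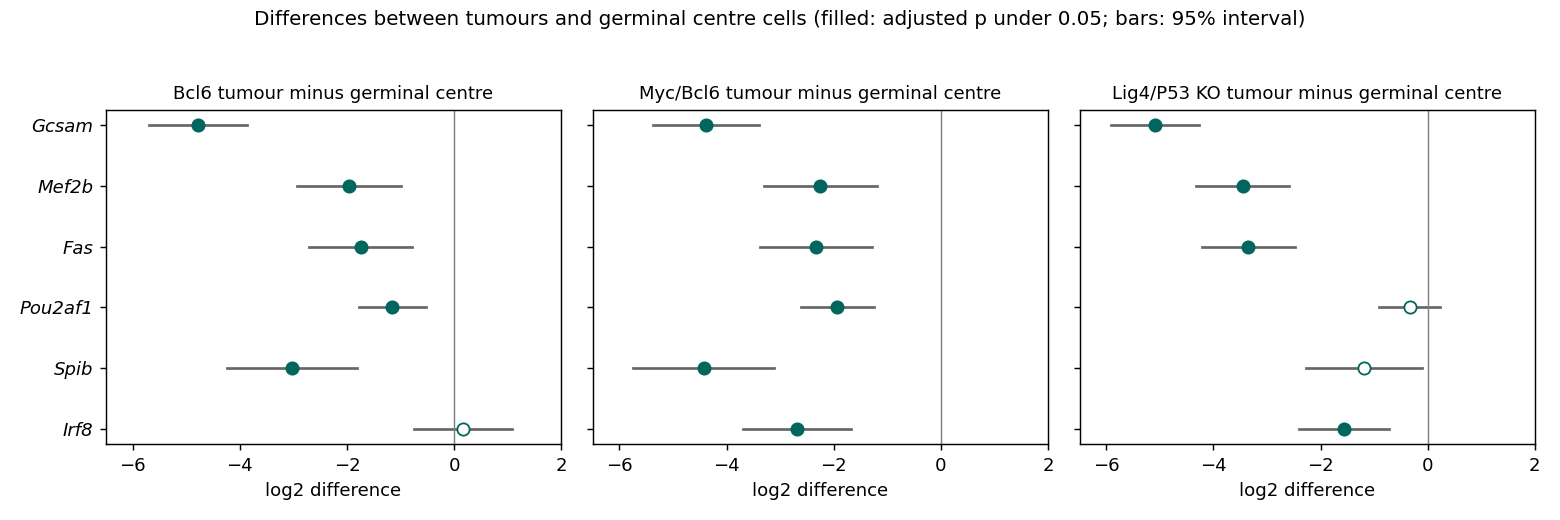
Differences in level between each tumour group and germinal centre cells (log2, horizontal axis) for the 6 genes, with 95% intervals; filled points have an adjusted p under 0.05. Gcsam lies between -5.09 and -4.38 in the 3 panels, while Irf8 crosses 0 in Bcl6 tumours and Pou2af1 in Lig4/P53 KO tumours.

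Gcsam, the adaptor, read 2.83, 3.78, 2.68 and 3.14 in Bcl6 tumours and 3.40, 3.13 and 4.0 in Myc/Bcl6 tumours, against 9.05, 8.41, 7.82, 8.0 and 6.17 in germinal centre cells. The differences were -4.78 ± 0.45 in Bcl6 tumours (adjusted p = 2.78e-09), -4.38 ± 0.49 in Myc/Bcl6 tumours (5.13e-08) and -5.09 ± 0.40 in Lig4/P53 KO tumours (6.95e-11), where the arrays ran from 2.36 to 3.16 with a median of 2.87. No tumour array reached a germinal centre array, the highest tumour value being 4.0.

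Mef2b read 4.30, 4.53, 6.93 and 5.60 in Bcl6 tumours and 4.06, 6.02 and 5.09 in Myc/Bcl6 tumours, against 6.71, 7.32, 8.04, 8.07 and 6.39 in germinal centre cells. Its differences were -1.96 ± 0.48 in Bcl6 tumours (3.90-fold lower, adjusted p = 0.00251), -2.25 ± 0.52 in Myc/Bcl6 tumours (4.74-fold, 0.000939) and -3.45 ± 0.43 in Lig4/P53 KO tumours (10.9-fold, 4.49e-07). The Lig4/P53 KO arrays ran from 3.31 to 4.27 with a median of 3.90. One Bcl6 tumour, replicate 3 at 6.93, overlapped the germinal centre arrays.

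Fas read 5.56, 6.85, 7.01 and 6.24 in Bcl6 tumours and 5.54, 5.70 and 6.24 in Myc/Bcl6 tumours, against 9.0, 8.32, 8.13, 8.47 and 6.86 in germinal centre cells. It differed by -1.74 ± 0.47 in Bcl6 tumours (3.34-fold lower, adjusted p = 0.00634), -2.33 ± 0.51 in Myc/Bcl6 tumours (5.03-fold, 0.000599) and -3.35 ± 0.43 in Lig4/P53 KO tumours (10.2-fold, 6.43e-07). In Lig4/P53 KO tumours the arrays ran from 3.95 to 6.16 with a median of 4.33, with replicates 4 and 5 above the other four. Renewed quantile normalization ended the Bcl6 call (-1.16, adjusted p = 0.126).

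Pou2af1 was called lower in the Bcl6 and Myc/Bcl6 tumours but not in Lig4/P53 KO tumours. It read 10.71, 9.56, 11.03 and 10.84 in Bcl6 tumours and 9.53, 10 and 9.71 in Myc/Bcl6 tumours, against 11.62, 11.69, 11.87, 11.84 and 11.40 in germinal centre cells, with differences of -1.15 ± 0.31 in Bcl6 (adjusted p = 0.00589) and -1.94 ± 0.34 in Myc/Bcl6 tumours (4.11e-05). The Bcl6 call was lost without its lowest array, replicate 2 (-0.83, adjusted p = 0.0527). Lig4/P53 KO tumours, at 11.09 to 11.98 with a median of 11.26, differed by -0.33 from germinal centre cells (95% interval -0.90 to 0.24) and overlapped them.

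Spib read 6.55, 7.66, 9.70 and 8.97 in Bcl6 tumours and 4.65, 8.14 and 7.63 in Myc/Bcl6 tumours, against 10.73, 10.95, 11.55, 11.55 and 11.42 in germinal centre cells. It was called in Bcl6 tumours with -3.02 ± 0.59 (8.11-fold lower, adjusted p = 0.000311) and with -4.43 ± 0.64 in Myc/Bcl6 tumours (21.6-fold, 3.59e-06), with a spread of over 3 within each tumour group. Myc/Bcl6 replicate 1, the lowest at 4.65, also had the lowest summed B-cell identity level (8.92, against 12.08 and 11.97 in the other Myc/Bcl6 arrays), and without it the difference was -3.35 and still called. In Lig4/P53 KO tumours it ran from 9.76 to 10.34 with a median of 10.01; all 6 arrays were below the germinal centre arrays, but -1.19 ± 0.53 did not pass (adjusted p = 0.148). Fitted with both groups alone, where the spread of the other tumours does not enter, that difference was called (0.000225).

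Irf8 read 9.30, 8.98, 11.48 and 10.47 in Bcl6 tumours, against 9.84, 9.86, 9.88, 10.03 and 9.82 in germinal centre cells, and the difference of 0.17 had an interval of -0.75 to 1.09. It read 5.74, 7.92 and 7.94 in Myc/Bcl6 tumours and fell by 2.69 ± 0.49 (6.43-fold lower, adjusted p = 8.4e-05), or by 1.96 without replicate 1, which was still called. In Lig4/P53 KO tumours it ran from 7.72 to 8.53 with a median of 8.42 and fell by 1.57 ± 0.41 (2.96-fold, adjusted p = 0.00662). Every array of these last 2 groups was below every germinal centre array.

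Cell composition and RNA quality moved with these tumour results. The summed level of 7 of 8 B-cell identity markers was 11.52 to 12.31 in Bcl6, 8.92 to 12.08 in Myc/Bcl6 and 12.15 to 12.54 in Lig4/P53 KO tumours, against 13.26 to 13.66 in germinal centre cells. Macrophage and dendritic cell markers (12 of 14) summed to 13.08 to 14.25 in Bcl6, 12.54 to 14.12 in Myc/Bcl6 and 9.32 to 11.63 in Lig4/P53 KO tumours, against 10.52 to 11.99. Of these 12 markers 4 rose and 1 fell in Bcl6 tumours, and 2 rose and 2 fell in Myc/Bcl6 tumours. In Lig4/P53 KO tumours 3 fell and none rose. Csf1r and C1qb, markers of macrophages, rose in Bcl6 tumours by 4.35 ± 0.57 and 3.71 ± 0.61 against germinal centre cells, and Spic, an ETS factor of splenic macrophages, by 2.67 ± 0.58. Irf8 is also made by macrophages and dendritic cells. NK cell markers fell in 6 of 7 genes in each tumour group, T cell markers in 2 of 9 in Bcl6, 5 of 9 in Myc/Bcl6 and 9 of 9 in Lig4/P53 KO tumours, and granulocyte markers in 5, 5 and 4 of 10. The part of these cells in the Irf8 and Fas results was not tested. With the 3′ excess as a covariate, 4 of 5 calls held in Bcl6 tumours (Mef2b had -1.75, adjusted p = 0.132), 6 of 6 in Myc/Bcl6 and 4 of 4 in Lig4/P53 KO tumours. In Bcl6 tumours the value of Irf8 then turned to -0.67. Every tumour array had more 3′ excess (2.255 to 4.695) than any germinal centre array (0.68 to 1.548). The 18S control also separated them (4.136 to 6.148, against 10.035 to 11.131) and was not used as a covariate. Tumour status and RNA quality therefore cannot be told apart here, and the calls that held do not separate them.

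Other germinal centre genes fell in the tumours too. Of its 14 measured genes 8 fell and none rose in each tumour group, with medians of -1.90 in Bcl6, -2.28 in Myc/Bcl6 and -2.44 in Lig4/P53 KO tumours. In Bcl6 tumours Id3, an inhibitor of E proteins, had -2.67 ± 0.42, Bcl6 -4.06 ± 0.70, Gna13, a G protein that confines cells to the germinal centre, -3.73 ± 0.76 and Lmo2, a transcriptional adaptor, -2.34 ± 0.48. In Myc/Bcl6 tumours Lmo2 had -4.41 ± 0.52, Cd83 -4.84 ± 0.64, Id3 -2.88 ± 0.46 and Bcl6 -4.54 ± 0.76. In Lig4/P53 KO tumours Lmo2 had -4.71 ± 0.43, Cd83 -5.62 ± 0.53, Bcl6 -5.60 ± 0.63 and Mybl1 -2.70 ± 0.43.

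**Figure D5:**
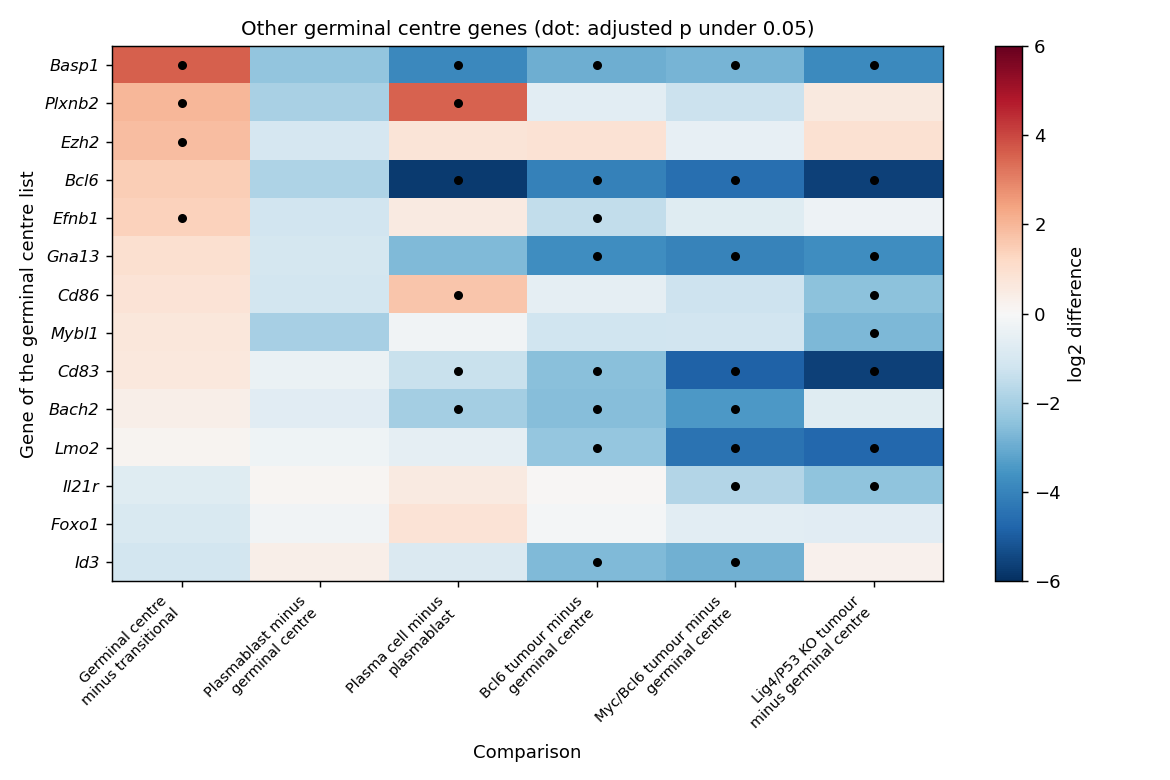
Differences in level (log2, colour) of the 14 measured germinal centre list genes in 6 comparisons, with a dot where the adjusted p was under 0.05. Dots fill 8 of 14 rows in each tumour column, 4 of 14 for germinal centre minus transitional cells and none for plasmablasts minus germinal centre cells.

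Among relatives of the members, Mef2c fell in all 3 tumour groups against germinal centre cells, with -1.74 ± 0.50 in Bcl6, -3.92 ± 0.54 in Myc/Bcl6 and -2.96 ± 0.45 in Lig4/P53 KO tumours. Mef2d split, with -1.33 ± 0.33 in Myc/Bcl6 and 0.95 ± 0.28 in Lig4/P53 KO tumours, both called. Irf4, the factor that drives exit to the plasma cell, fell in Bcl6 (-2.90 ± 0.97) and Myc/Bcl6 tumours (-5.10 ± 1.06), and had -0.59 ± 0.88 in Lig4/P53 KO tumours. Of 6 Oct and ETS relatives 3 fell and 1 rose in Bcl6, 4 fell and 1 rose in Myc/Bcl6, and 1 fell in Lig4/P53 KO tumours; Fli1 was among those that fell in each, with -3.25 ± 0.52 in Bcl6, -5.19 ± 0.57 in Myc/Bcl6 and -1.67 ± 0.47 in Lig4/P53 KO tumours.

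In the Fas pathway Cflar fell along with the receptor in all 3 tumour groups, with -3.59 ± 0.35 in Bcl6, -4.96 ± 0.38 in Myc/Bcl6 and -2.96 ± 0.31 in Lig4/P53 KO tumours. Fasl, the ligand, rose by 2.03 ± 0.35 in Bcl6 tumours and fell by 1.00 ± 0.32 in Lig4/P53 KO tumours, and had 0.81 ± 0.38 in Myc/Bcl6 tumours (adjusted p = 0.0789). Counts over the 6 measured genes were 1 up and 1 down in Bcl6, 3 down in Myc/Bcl6 and 2 down in Lig4/P53 KO tumours.

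Between the tumour models the members gave different calls. Myc/Bcl6 and Bcl6 tumours differed in 1 of the 6 genes, Irf8, which differed by -2.86 ± 0.52 in Myc/Bcl6 tumours (7.24-fold lower, adjusted p = 0.00264), where 1.97% of all genes fell and 1.94% rose (49.6% of calls higher, 39% with equal array medians). The groups did not overlap for Irf8 on this probe set. On the second probe set the difference was -2.55 ± 0.79 and not called (adjusted p = 0.0632), and with both groups fitted alone the first value was not called (0.427). Gcsam (0.40, interval -0.64 to 1.44) and Mef2b (-0.28, interval -1.39 to 0.82) did not pass.

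Lig4/P53 KO and Bcl6 tumours differed in 5 of the 6 genes, where 15.5% of all genes rose and 10.9% fell. Pou2af1 was 0.82 ± 0.30 higher (adjusted p = 0.0395) and Spib 1.84 ± 0.57 higher (0.0169) in Lig4/P53 KO tumours, and no array overlapped for either. Mef2b (-1.49 ± 0.46, 0.0162), Fas (-1.61 ± 0.45, 0.00886) and Irf8 (-1.74 ± 0.44, 0.00356) were lower. In the same comparison macrophage and dendritic cell markers fell in 6 of 12 genes and T cell markers in 8 of 9, and B-cell identity markers rose in 3 of 7 and fell in 1; their part was not tested. With the 3′ excess as a covariate the Fas call was lost (-1.27, 0.0739). Irf8 on its second probe set had -0.99 ± 0.66 and was not called (0.287). Without Bcl6 tumour replicate 2 Pou2af1 had 0.50 (0.277) and Spib 1.65 (0.0703), and without replicate 1 Pou2af1 had 0.88 (0.0524) and Spib 1.28 (0.112). Leaving out Lig4/P53 KO replicate 1, 2, 3, 4 or 6 also ended the Pou2af1 call, and without Bcl6 tumour replicate 3 Mef2b had -0.96 (0.115). Renewed quantile normalization left 2 of the 5 calls.

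Lig4/P53 KO and Myc/Bcl6 tumours differed in 3 of the 6 genes, where 23.2% of all genes rose and 22.3% fell. This count is near the share of all genes called, 5631 of 12393, and so sets the members apart in no way. Spib was 3.25 ± 0.62 higher in Lig4/P53 KO tumours (9.49-fold, adjusted p = 0.000186) and Pou2af1 1.61 ± 0.33 higher (3.05-fold, 0.000323), with no overlap. Mef2b was lower with -1.20 ± 0.50 at an adjusted p of 0.0494, with overlapping arrays, and the call was lost without either Myc/Bcl6 replicate 2 (-0.72, 0.3) or replicate 3 (-1.19, 0.121), or without Lig4/P53 KO replicate 1, 3, 4, 5 or 6. The Mef2b call was also lost after renewed quantile normalization (adjusted p = 0.152) and with equal array medians (0.0755), array weights (0.255), the replicate block (0.0723) or the 3′ covariate (0.0578). Irf8 (1.12 ± 0.48, adjusted p = 0.0547), Fas (-1.02 ± 0.50, 0.0897) and Gcsam (-0.71 ± 0.47, 0.211) did not pass. In the same comparison B-cell identity markers had 5 of 7 higher and 1 lower, macrophage and dendritic cell markers 3 of 12 lower and the germinal centre list 4 of 14 higher and 1 lower.

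Genes with the most similar pattern over the 35 arrays were taken by Pearson r, as a description; the arrays share groups, so that r reflects group differences. For Gcsam they were Crisp3 (r = 0.83), 2510009E07Rik (0.80) and Tox (0.79), for Mef2b Plpp1 (0.81), Parm1 (0.78) and Cd86 (0.75), and for Fas Parm1 (0.82), 2510009E07Rik (0.76) and Ccdc175 (0.76). For Pou2af1 they were Celf2, Ing1 and Hdac1 (0.84 each), for Spib Usf2 (0.92), Csk (0.92) and Uhmk1 (0.91), and for Irf8 Ptpn6 (0.76), Trafd1 (0.73) and H2-Ab1 (0.71). Among the members themselves r was 0.71 for Gcsam and Fas, 0.70 for Mef2b and Fas and 0.60 for Gcsam and Mef2b. It was 0.54 for Spib and Irf8, while Mef2b had 0.06 with both Pou2af1 and Spib. Over the 22 normal arrays alone Gcsam and Pou2af1 reached 0.77, against 0.39 over all 35.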

How the data were processed

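RNA from 22 sorted wild-type samples and 13 tumours was amplified with the Ovation V2 kit, labelled with biotin and hybridised to Affymetrix 430A2 arrays, per the labels' protocols. The deposited table holds log2 values that the authors made with RMA, per the submitters' processing notes; its version and which arrays were normalized together are not given in the sources used here. It has 22690 probe sets, of which 20380 have 1 gene symbol in the platform annotation, for 12393 genes. RMA has background correction and quantile scaling built in, which sets equal overall distributions on the arrays it treats together and can shift differences between unlike samples; array intensity gives no read depth, and the number of arrays limits precision.

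Each gene was given by its probe set of highest mean. Linear models in limma 3.58.1 (R 4.3.3) were fitted to all genes, with the 22 normal arrays for stages and all 35 for tumours, and p-values were Benjamini-Hochberg adjusted over all genes. Tables and plots used Python 3.11.15, pandas 2.3.3, numpy 2.4.6 and matplotlib 3.10.9. Fits were tested on simulated data. Nothing says that replicates came from separate animals, so p-values measure the spread between these samples, which may be technical. Members and lists were chosen with earlier results of these data known. Named were all members, the 3 genes of highest r for each, up to 4 genes of smallest p per list and comparison, and the 2 markers of highest mean for other cell types; Bcl6 against transitional cells, Sdc1, Csf1r, C1qb, Irf4, Mef2d, Fasl, Spic and Fli1 were also named, in part after their values were seen. Replicate numbers did not pair samples: correlations of same-numbered deviations ran from -0.491 to 0.391 over 42 pairs. The settings tried in turn averaged all probe sets of a gene, dropped dim genes, repeated quantile normalization, equalised array medians, or used a trend with a robust prior, array weights, compared groups alone, a replicate block, covariates for 3′ excess and strain, narrow-spread arrays left out, and each replicate left out.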

Additional observations from a re-analysis of the deposited data

Results flagged for a closer look

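Of 30 gene and group sets of 4 to 10 arrays, 4 held an array whose gap to the next was large for the group's range by Dixon's criterion, and chance gives this in about 1 in 20. Fas in plasmablast replicate 4 was 4.94, while the others had 5.16 to 5.17. Pou2af1 in Lig4/P53 KO replicate 6 was 11.98, while the others had 11.09 to 11.29. Irf8 in the same array was 7.72, while the others had 8.35 to 8.53. Irf8 in transitional replicate 2 was 8.65, while the others had 9.74 to 9.95, and without it the difference between transitional and pre-B cells was called (1.70, adjusted p = 0.0266).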

How the results depend on the processing

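Of 1350 values of single genes under alternatives, 1224 kept their direction and side of the threshold, 61 lost the call, 31 gained one and 34 changed sign; none that changed sign was called in the fit as reported. The cause of these shifts was not tested. For germinal centre against transitional cells 4 members were called and none with the strain covariate. For transitional against pre-B cells the count of 0 became 1 with the mean of all probe sets, equal array medians, the 3′ covariate and the strain covariate. Myc/Bcl6 against Bcl6 tumours had 1, but 0 with the compared groups alone and 2 without narrow-spread arrays. Lig4/P53 KO against Bcl6 tumours had 5, but 2 after quantile normalization, and against Myc/Bcl6 tumours 3, but 5 without narrow-spread arrays. Called neighbours numbered 4, and 7 with array weights. Germinal centre list calls for germinal centre against transitional cells were 4, and 9 with array weights, compared groups alone or narrow-spread arrays left out. For plasmablasts against germinal centre cells these were 0, but 9 with array weights, 6 with the groups alone, 5 without narrow-spread arrays, 2 with the mean of probe sets, the dim filter, equal medians, or the 3′ covariate, and 1 after quantile normalization or with the robust trend.

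Leaving out each replicate gave ranges of members called of 0 to 1 for transitional against pre-B, 4 to 4 for germinal centre against transitional or pro-B cells, 2 to 4 for plasmablasts against germinal centre, 0 to 4 for plasma cells against plasmablasts, 4 to 5 for Bcl6, 6 to 6 for Myc/Bcl6 and 4 to 4 for Lig4/P53 KO tumours against germinal centre, 1 to 2 for Myc/Bcl6 and 3 to 5 for Lig4/P53 KO against Bcl6 tumours, and 2 to 3 for Lig4/P53 KO against Myc/Bcl6 tumours. With the replicate number as a block, plasmablasts against germinal centre cells had 4 members called (3 without it) and 2 list genes, plasma cells against plasmablasts 3 (4), and Lig4/P53 KO tumours 4 (5) against Bcl6 and 2 (3) against Myc/Bcl6; the numbers did not pair samples.

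Sign changes touched values that were not called in the fit as reported. Pre-B against pro-B: Gcsam 0.93 became -0.00 with weights, Fas -0.07 became 0.55 with weights and 0.45 without narrow-spread arrays (-0.57 to 0.68 by replicate), and Spib -0.09 became 0.55, 0.46 and, with strain, 0.08 (-0.66 to 0.88). Transitional against pre-B: Gcsam -0.01 became 0.02 with equal medians, 1.04 with weights, 0.10 with the block and 0.78 without narrow-spread arrays (-0.59 to 0.78). Germinal centre against transitional: Irf8 0.36 became -0.07 with the mean of probe sets and Spib -0.12 became 0.06 with equal medians (-0.34 to 0.14). Irf8 against pro-B, 0.28, became -0.33 with the mean of probe sets and -0.18 after quantile normalization (-0.17 to 0.89). Plasmablasts against germinal centre: Irf8 -0.49 became 0.02 and, after quantile normalization, Spib -0.14 became 0.12. Bcl6 tumours against germinal centre: Irf8 0.17 became -0.56 with the mean of probe sets and -0.67 with the 3′ covariate (-0.30 to 0.53). Mef2b in Myc/Bcl6 against Bcl6 tumours, -0.28, ranged from -0.76 to 0.25.

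Counts over all genes ranged widely, fits without single replicates included: 1673 for germinal centre against transitional cells (40 with strain, 5614 with weights), 1082 against pro-B (205 and 3358), and 84 for plasmablasts against germinal centre (31 without plasmablast replicate 3, 3010 with weights). Others were 20 for pre-B against pro-B (0 to 91), 724 for transitional against pre-B (202 to 1734), 1771 for plasma cells against plasmablasts (1141 to 6245), and 3326, 5960 and 1954 for Bcl6, Myc/Bcl6 and Lig4/P53 KO tumours against germinal centre (872 to 5010, 2922 to 7926 and 1241 to 5485). Between tumours they were 484 for Myc/Bcl6 against Bcl6 (0 to 3701) and, for Lig4/P53 KO, 3271 against Bcl6 (2072 to 4921) and 5631 against Myc/Bcl6 (3529 to 7816).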
